A study of Sus scrofa with 4 samples.

Results

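A fixed list of 32 genes was examined in cultured pig testis cells with knockdown of ZBTB16 and in control cells: 22 secreted factors (9 chemokines, 11 cytokines and growth factors, and the acute-phase proteins SAA3 and C3) and 10 intracellular or surface genes known as targets of NF-kB. The members were taken by gene symbol from the 26921 genes of the deposited tables, and all 32 were found. The study sequenced mRNA of cells labelled as immature spermatogonia of the pig, with 2 libraries per group, to learn which genes depend on ZBTB16, a zinc finger transcription factor of undifferentiated spermatogonia. The ZBTB16 knockdown group carried, as the series' design plans it, a short hairpin RNA delivered by lentivirus into primary cells, and the control group was labelled WT. Whether the control cells received a vector is not stated, so the knockdown and the lentivirus cannot be told apart for any gene below. Age, breed and time after transduction were not given in the sources used here. The labels speak of 2 independent experiments without saying whether each replicate is a separate culture, so the spread that p-values rest on is that between these libraries and may be technical.

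NF-kB is a family of dimeric transcription factors held in the cytoplasm by inhibitor proteins. Signals from receptors for IL-1, TNF or microbial products lead to breakdown of the inhibitor, and the released dimer binds short DNA elements, called kB sites, near the start of cytokine, chemokine, adhesion and survival genes. Several of its targets, such as the inhibitor NFKBIA and the deubiquitinase TNFAIP3, switch the pathway off again, which makes it a feedback loop. In the testis, somatic cells and macrophages are known sources of chemokines and cytokines, among them CXCL12, CSF1 and LIF, which act on germ cells or on other cells of their niche.

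The libraries held 18500447 and 16548342 expected counts in the knockdown and 17283536 and 15983390 in the control, where an expected count is a read count that the counting program may divide among transcripts. FPKM, used below for levels, divides a gene's fragments by its transcript length and the size of the library. The fold changes come from edgeR's quasi-likelihood test on the counts, and a gene counts as called where the p adjusted after Benjamini and Hochberg is under 0.05. The mean sequenced fragment was 266.4 and 267.3 bases long in the knockdown libraries and 325.7 and 326.7 bases in the control libraries, a value that enters the effective length behind FPKM. ZBTB16 itself was at 1.37 and 1.34 FPKM in the knockdown, against 1.77 and 1.76 FPKM in the control (0.779-fold, adjusted p = 0.00338). The adjusted p of ZBTB16 was 0.0858 with DESeq2 and between 0.0685 and 0.101 with the 3 limma fits on FPKM, and its log2 change was -0.11 with limma on log2(TPM + 1) (adjusted p = 0.338), where TPM rescales FPKM to 1 sum in every library, so the call on the targeted gene depended on the test. Mitochondrial genes took 5.71 and 5.71% of counts in the knockdown and 4.15 and 4.29% in the control, and ribosomal protein genes 2.86 and 2.83% in the knockdown and 4.19 and 4.16% in the control. Both shares stood apart by group, and their part in the results below was not tested. Germ line markers were present but low: 13 of 19 reached 1 FPKM in any library, LIN28A, NANOS2 and NANOG had under 5 counts in every library, and the summed level of the list was 149 and 147 FPKM in the knockdown and 183 and 182 FPKM in the control. UCHL1 alone was at 89.05 and 85.25 FPKM in the knockdown and 121.72 and 120.41 FPKM in the control. Markers of peritubular cells and fibroblasts summed to 7820 and 7700 FPKM in the knockdown and 8180 and 8080 FPKM in the control, far above the germ line list, so genes that mark cells other than those named on the label were expressed at high levels. In such a mixture, fewer cells of a type and less RNA per cell cannot be told apart.

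Of the 32 genes, all of which passed the filter on low counts, 6 rose in the knockdown, 12 fell and 14 were not called. The 18 called members are 56.2% of the list, where 46.4% of all 15763 tested genes were called, 22.7% as higher and 23.8% as lower. The median log2 change of the members was -0.08, against 0 over all tested genes. The 6 that rose were CCL8, CXCL8, CX3CL1, IL1A, BIRC3 and PTGS2. The 12 that fell were CCL5, CCL20, CXCL2, IL18, LIF, OSM, CSF2, SAA3, C3, RELB, VCAM1 and SOD2. Normalised counts of the groups did not overlap for 9 members with both knockdown libraries above and for 16 with both below, and overlapped for 7, while groups without overlap were seen for 70.5% of all tested genes. Of the 22 secreted members 4 rose, 9 fell and 9 were not called (59.1% called), and of the 10 intracellular or surface members 2 rose, 3 fell and 5 were not called. The share of members called is thus not far from the background. The balance of the 2 directions depended on the scale. With a smooth trend of transcript length removed from each library, 9 members were higher and 9 lower, where 17.4% of all genes were higher and 23.4% lower, and 7 secreted members were higher and 6 lower. With limma on log2(TPM + 1), 14 members were higher and 9 lower, where 41.7% of all genes were higher and 14.5% lower. With limma on log2(FPKM + 1), 5 members were higher and 15 lower, where 15.6% of all genes were higher and 29.7% lower. With DESeq2, 4 members were higher and 12 lower, where 15.7% of all genes were higher and 16.6% lower.

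**Figure D1:**
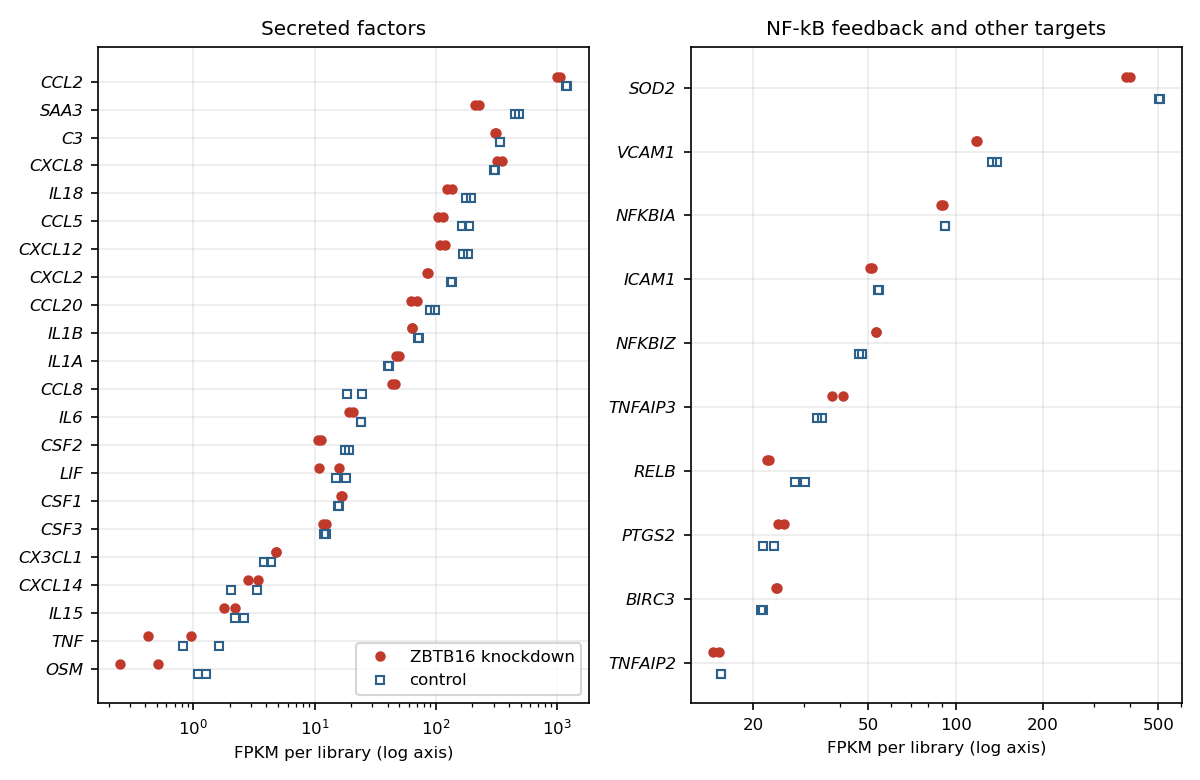
FPKM of each member in each library, on log axes, with secreted factors on the left and NF-kB feedback genes and other targets on the right. Filled red circles are the 2 ZBTB16 knockdown libraries and open blue squares the 2 control libraries. Levels span from OSM at 0.25 FPKM to CCL2 at over 1000 FPKM, and the difference between groups is small beside that range for most genes.

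The chemokines are small secreted proteins that attract leukocytes, and of the 9 members 3 rose, 3 fell and 3 were not called (66.7% called, beside 46.4% of all tested genes). With the length trend removed 6 of them were higher and 2 lower, where 17.4% of all genes were higher and 23.4% lower. With limma on log2(FPKM + 1) 1 was higher and 5 lower, where 15.6% of all genes were higher and 29.7% lower. The CXC chemokines CXCL2 and CXCL8 attract neutrophils, and their genes lie on the plus strand of chromosome 8 of Sscrofa11.1, CXCL2 at chr8:70157253-70159145 and CXCL8 at chr8:69932646-69935861. The sequence around each gene start is printed because their induction by NF-kB is known to act through a kB site there, and because the fit gave opposite signs for the 2 genes. Each sequence runs 5′ to 3′ on the plus strand of the RefSeq assembly Sscrofa11.1, from 250 bases before to 50 bases after the annotated gene start. CXCL2 is chr8:70157003-70157302 and CXCL8 is chr8:69932396-69932695. Capitals mark matches to the kB consensus, a pattern of 10 bases, or to the 9-base site GGAATTTCC known from CXCL8, on either strand.
CXCL2: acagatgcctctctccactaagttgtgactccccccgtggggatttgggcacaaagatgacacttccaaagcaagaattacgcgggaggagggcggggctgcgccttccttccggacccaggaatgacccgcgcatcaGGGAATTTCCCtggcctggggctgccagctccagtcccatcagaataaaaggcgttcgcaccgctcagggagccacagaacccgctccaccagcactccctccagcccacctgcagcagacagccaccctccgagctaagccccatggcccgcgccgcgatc
CXCL8: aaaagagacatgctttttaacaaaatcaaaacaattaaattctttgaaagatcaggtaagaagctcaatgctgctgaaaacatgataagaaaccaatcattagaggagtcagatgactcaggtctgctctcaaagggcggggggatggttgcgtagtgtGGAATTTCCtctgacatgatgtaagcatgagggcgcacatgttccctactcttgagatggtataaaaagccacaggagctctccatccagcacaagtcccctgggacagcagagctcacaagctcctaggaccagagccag
The CXCL2 window holds a single stretch that matches both patterns, from position -112 to -102, where -1 is the last base before the gene start and 1 the first base of the gene. The CXCL8 window holds only the 9-base site, from position -91 to -83.

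CXCL2 was at 85.13 and 86.32 FPKM in the knockdown, against 132.34 and 135.17 FPKM in the control. It fell to 0.696 times control by the fit (log2 -0.52, SE 0.0417, adjusted p = 4.21e-24), with no overlap between groups. CXCL8 was at 321.40 and 349.76 FPKM in the knockdown and 303.47 and 309.36 FPKM in the control. It rose 1.16-fold by the fit (log2 0.22, SE 0.0245, adjusted p = 1.12e-14), and both knockdown libraries lay above both control libraries. By limma on log2(FPKM + 1) the rise of CXCL8 was 0.13 on the log2 scale with an adjusted p of 0.0697, so its call depended on the unit.

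CXCL2 belongs to the GRO family, whose copies share much of their sequence, so reads can be divided among them. 2 further rows of the deposited tables belong to this family. LOC100525396, annotated as growth-regulated protein gamma-like, had 3540 and 3119 expected counts in the knockdown and 4020 and 3655 in the control. It fell by 0.26 on the log2 scale (SE 0.0293, adjusted p = 1.09e-14). An unannotated locus, which the deposited tables name CXCL1 and whose transcripts they also list under the other 2 rows, had 94.09 and 47.23 expected counts in the knockdown and 479.71 and 418.82 in the control. It fell to 0.151 times control (log2 -2.73, SE 0.116, adjusted p = 6.37e-52). The 3 rows differed in the size of the fall, and each fell. When the counts of all 3 were added, a setting chosen after seeing the data, the sum was 4993 and 4402 in the knockdown and 6348 and 5807 in the control. The summed counts fell by 0.43 on the log2 scale (SE 0.0251, adjusted p = 1.18e-35), so the sum over these rows fell as well.

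**Figure D2:**
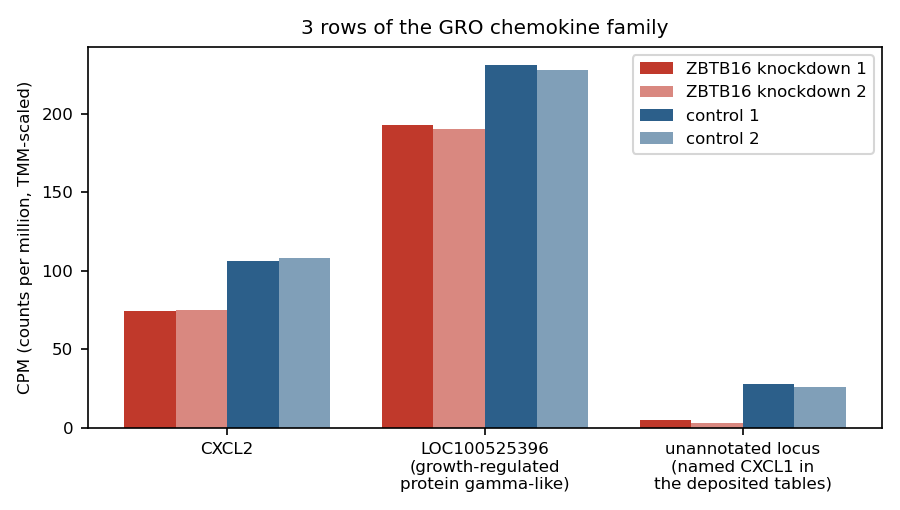
Counts of CXCL2 and of 2 further rows of the GRO family, in each library, normalised to library size as CPM, on the vertical axis (red, the 2 ZBTB16 knockdown libraries; blue, the 2 control libraries). Bars start at 0. In all 3 rows both red bars are below both blue bars, with the largest relative gap for the unannotated locus.

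Among the CC chemokines, CCL2 (chr12:40798109-40800013) and CCL8 (chr12:40740468-40741970) attract monocytes and lie close together on the minus strand, CCL5 attracts T cells and monocytes, and CCL20 attracts cells that carry CCR6. CCL8 was at 45.95 and 43.23 FPKM in the knockdown, against 18.62 and 24.73 FPKM in the control, from 72 and 60 counts against 14 and 17. It rose 4.07-fold by counts (log2 2.02, SE 0.271, adjusted p = 4.08e-11), the largest change of any member by the fit. Its transcript is 347 bases long, not much longer than the mean fragment of the control libraries. With an offset for effective length, the number of positions in a transcript where a fragment can start, the log2 change was 1.1 (adjusted p = 0.00181), still a rise. CCL5 was at 115.69 and 103.99 FPKM in the knockdown and 165.82 and 189.50 FPKM in the control, and it fell to 0.722 times control (log2 -0.47, SE 0.0502, adjusted p = 9.76e-16). CCL20 was at 62.03 and 70.24 FPKM in the knockdown and 98.14 and 90.36 FPKM in the control. It fell to 0.767 times control (log2 -0.38, SE 0.0735, adjusted p = 2.91e-06). For both genes the groups did not overlap. With the length trend removed, the log2 change of CCL5 was -0.14 (adjusted p = 0.0162) and that of CCL20 was -0.06 (adjusted p = 0.545).

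CCL2 had the highest level of the 32 genes by FPKM, with 1007 and 1065 FPKM in the knockdown and 1176 and 1213 FPKM in the control. Its normalised counts overlapped between groups, at 486 and 513 CPM (counts scaled to library size) in the knockdown and 491 and 505 CPM in the control (log2 0.00, SE 0.0223, adjusted p = 0.913). The direction of CCL2 depended on the scaling: its log2 change was -0.15 with the effective length offset (adjusted p = 8.5e-06), -0.21 with limma on log2(FPKM + 1) (adjusted p = 0.0084) and 0.33 with the length trend removed (adjusted p = 8.8e-36). CXCL12, the ligand of CXCR4 and a homing signal for germ cells and blood stem cells, was at 120.19 and 109.31 FPKM in the knockdown and 169.04 and 183.91 FPKM in the control. Its log2 change by counts was -0.07 (SE 0.0385, adjusted p = 0.159), so its lower FPKM had no called counterpart in counts. CX3CL1, a chemokine tethered to the cell surface, was at 4.83 and 4.81 FPKM in the knockdown and 4.41 and 3.86 FPKM in the control. It rose 1.23-fold (log2 0.29, SE 0.0968, adjusted p = 0.00769), but the adjusted p was 0.153 without knockdown replicate 1, 0.165 without control replicate 2 and 0.13 with DESeq2. CXCL14 was at 3.42 and 2.83 FPKM in the knockdown and 2.03 and 3.32 FPKM in the control, and the groups overlapped (log2 0.32, SE 0.186, adjusted p = 0.156). Without control replicate 2 CXCL14 was called higher (log2 0.70, adjusted p = 0.0119).

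Of the 11 cytokines and growth factors, 1 rose, 4 fell and 6 were not called (45.5% called, beside 46.4% of all tested genes). The IL-1 family went both ways. IL1A, an alarmin that signals through the IL-1 receptor, was at 47.05 and 50.20 FPKM in the knockdown and 40.69 and 41.07 FPKM in the control. It rose 1.09-fold by counts (log2 0.13, SE 0.0417, adjusted p = 0.00586) with no overlap between groups, and its adjusted p was 0.164 without knockdown replicate 2 (log2 0.08), 0.0757 without control replicate 1 and 0.0798 with DESeq2. Offsetting for effective length gave a larger rise, 0.30 on the log2 scale (adjusted p = 1.72e-06). IL1B, which acts on the same receptor, was at 64.02 and 63.94 FPKM in the knockdown, against 73.33 and 71.20 FPKM in the control (log2 -0.09, SE 0.0437, adjusted p = 0.0959). IL18, an IL-1 family cytokine matured by caspase-1, was at 124.73 and 136.24 FPKM in the knockdown, against 179.03 and 193.87 FPKM in the control. It fell to 0.776 times control (log2 -0.37, SE 0.0432, adjusted p = 1.73e-13), and its log2 change was -0.08 with the length trend removed (adjusted p = 0.12). Pigs carry near-identical copies of IL1B, and with the copies added its log2 change was -0.10 (adjusted p = 0.0505). The copies moved apart at low counts. LOC110258582 rose, from 35.10 and 35.93 counts in the control to 68.03 and 42.62 in the knockdown (log2 0.58, adjusted p = 0.0297). An unannotated locus fell, from 50.88 and 62.98 counts in the control to 18.19 and 30.84 in the knockdown (log2 -1.27, adjusted p = 7.49e-06). IL1B2 was not called.

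Cytokines of the IL-6 family signal through the shared receptor subunit IL6ST. IL6 was at 20.86 and 19.26 FPKM in the knockdown and 24.21 and 24.33 FPKM in the control, and was not called (log2 -0.15, SE 0.086, adjusted p = 0.148). LIF, which lies next to OSM on chromosome 14, was at 15.85 and 10.86 FPKM in the knockdown and 18.19 and 15.06 FPKM in the control, where the groups overlap. Its normalised counts did not overlap, at 48.2 and 45.2 CPM in the knockdown and 58.8 and 57.3 CPM in the control, and it fell to 0.806 times control (log2 -0.31, SE 0.0524, adjusted p = 1.02e-07; 0.228 with limma on log2(FPKM + 1)). OSM, oncostatin M, was at 0.25 and 0.51 FPKM in the knockdown and 1.1 and 1.27 FPKM in the control, from 7 and 13 counts against 28 and 30. It fell to 0.334 times control (log2 -1.58, SE 0.376, adjusted p = 0.000151), which rests on few reads, and an annotated gene on the opposite strand overlaps it.

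The colony-stimulating factors, which support survival and growth of macrophages and granulocytes, differed from one another. CSF2, also called GM-CSF, was at 10.76 and 11.25 FPKM in the knockdown, against 17.85 and 19.08 FPKM in the control, and fell to 0.68 times control (log2 -0.56, SE 0.138, adjusted p = 0.000305; 0.146 with the length trend removed, log2 -0.25). CSF1 was at 16.71 and 16.38 FPKM in the knockdown, against 15.90 and 15.55 FPKM in the control (log2 0.11, SE 0.0487, adjusted p = 0.0552). CSF1 was called higher with RLE scaling (adjusted p = 0.0479) and with the effective length offset (adjusted p = 0.0354). It was not called with DESeq2 (adjusted p = 0.26) or with the length trend removed (adjusted p = 0.469). CSF3 was at 11.72 and 12.39 FPKM in the knockdown, against 12.45 and 11.99 FPKM in the control, and overlapped between groups (log2 -0.07, SE 0.1, adjusted p = 0.591). TNF, the ligand that gives the pathway its classical stimulus, was among the lowest members, at 0.42 and 0.95 FPKM in the knockdown and 0.82 and 1.63 FPKM in the control (log2 -0.76, SE 0.347, adjusted p = 0.0593). It was called lower without knockdown replicate 2 (log2 -1.42, adjusted p = 0.0292) and without control replicate 1 (log2 -1.19, adjusted p = 0.0103). IL15, a growth factor of lymphocytes, was at 1.78 and 2.19 FPKM in the knockdown and 2.63 and 2.21 FPKM in the control, and a difference of this size was not detectable at its depth (log2 -0.19, SE 0.305, adjusted p = 0.644).

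Both acute-phase proteins fell. SAA3, a serum amyloid A protein made outside the liver during inflammation, is shown with its gene start because it fell and has a kB match close to the start, from position -36 to -27. The window is chr2:41021099-41021398, printed as above on the plus strand with the kB match in capitals.
SAA3: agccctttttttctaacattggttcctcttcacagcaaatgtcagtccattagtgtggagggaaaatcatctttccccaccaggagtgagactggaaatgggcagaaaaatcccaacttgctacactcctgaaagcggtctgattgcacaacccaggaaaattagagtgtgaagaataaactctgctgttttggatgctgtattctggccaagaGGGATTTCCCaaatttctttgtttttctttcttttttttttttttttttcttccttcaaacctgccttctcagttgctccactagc
SAA3 was at 228.39 and 212.49 FPKM in the knockdown, against 484.22 and 452.17 FPKM in the control. Its fall to 0.51 times control was the one with the smallest adjusted p among the members (log2 -0.97, SE 0.0399, adjusted p = 8.01e-54), and adding its copies left it at -0.97. C3, the central component of complement, was at 314.29 and 307.67 FPKM in the knockdown, against 339.76 and 339.62 FPKM in the control. It fell to 0.938 times control (log2 -0.09, SE 0.0173, adjusted p = 1.84e-06), a small change at a high count. On log2(TPM + 1), a scale that moves the median of all genes by 0.15, C3 was higher by 0.10 (limma adjusted p = 0.018), so the direction of C3 depended on the scale.

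The feedback genes of the pathway went both ways. NFKBIA, the inhibitor that holds NF-kB in the cytoplasm, was at 88.84 and 90.11 FPKM in the knockdown and 92.07 and 91.53 FPKM in the control. Its normalised counts were 60.8 and 61.6 CPM in the knockdown and 56.8 and 56.4 CPM in the control, so that FPKM and counts differ in direction (log2 by counts 0.11, SE 0.0495, adjusted p = 0.0524). TNFAIP3, the deubiquitinase A20, was at 40.89 and 37.39 FPKM in the knockdown and 34.60 and 33.34 FPKM in the control (log2 by counts 0.08, SE 0.0341, adjusted p = 0.0591). NFKBIZ, a nuclear member of the inhibitor family that helps NF-kB to switch on secondary genes, was at 53.16 and 53.26 FPKM in the knockdown and 47.50 and 46.42 FPKM in the control (log2 by counts 0.01, SE 0.0312, adjusted p = 0.912). None of these 3 inhibitors and regulators was called by edgeR on counts with TMM scaling and no offset or block. With limma on log2(TPM + 1), where 41.7% of all genes were higher, NFKBIA (adjusted p = 0.00427), NFKBIZ (0.000821) and TNFAIP3 (0.0028) were called higher. With limma on log2(FPKM + 1) NFKBIZ (adjusted p = 0.00928) and TNFAIP3 (0.0346) were called higher, and NFKBIA was not called. NFKBIA was just past the threshold with RLE scaling (adjusted p = 0.0455), upper quartile scaling (adjusted p = 0.0472) and the replicate block (adjusted p = 0.0309), and with the length trend removed it was higher by 0.35 (adjusted p = 2.59e-10). TNFAIP3 was just past it with RLE scaling (adjusted p = 0.0482). BIRC3, a ubiquitin ligase and survival factor, was at 24.14 and 23.98 FPKM in the knockdown, against 21.63 and 21.32 FPKM in the control. It rose 1.13-fold (log2 0.18, SE 0.0385, adjusted p = 2.58e-05; 0.109 with the length trend removed). RELB, the NF-kB subunit of the non-canonical arm, was at 22.34 and 22.64 FPKM in the knockdown, against 30.14 and 27.87 FPKM in the control. RELB fell to 0.802 times control (log2 -0.32, SE 0.0528, adjusted p = 6.73e-08; 0.0716 with limma on log2(TPM + 1)).

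Among the 5 other targets, SOD2, the manganese superoxide dismutase of mitochondria, was at 387.04 and 397.92 FPKM in the knockdown, against 503.49 and 504.98 FPKM in the control. SOD2 fell to 0.823 times control (log2 -0.28, SE 0.0208, adjusted p = 6.15e-27), and the groups lay far apart beside their spread. The adhesion molecule VCAM1 was at 117.78 and 118.77 FPKM in the knockdown, against 133.36 and 138.31 FPKM in the control. VCAM1 fell to 0.907 times control (log2 -0.14, SE 0.0261, adjusted p = 1.27e-06), and was at 0.03 on the log2(TPM + 1) scale (limma adjusted p = 0.483). ICAM1, the related adhesion molecule that binds leukocyte integrins, was at 51.30 and 50.58 FPKM in the knockdown and 53.99 and 54.52 FPKM in the control and was not called (log2 -0.03, SE 0.0377, adjusted p = 0.514). PTGS2, the cyclooxygenase of inflammatory prostaglandin synthesis, was at 24.30 and 25.64 FPKM in the knockdown, against 21.71 and 23.60 FPKM in the control. It rose 1.14-fold (log2 0.18, SE 0.0445, adjusted p = 0.000209), with an adjusted p of 0.0851 without control replicate 1 and 0.107 with limma on log2(FPKM + 1). TNFAIP2 was at 14.53 and 15.28 FPKM in the knockdown and 15.52 and 15.50 FPKM in the control and was not called (log2 -0.02, SE 0.0507, adjusted p = 0.785).

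**Figure D3:**
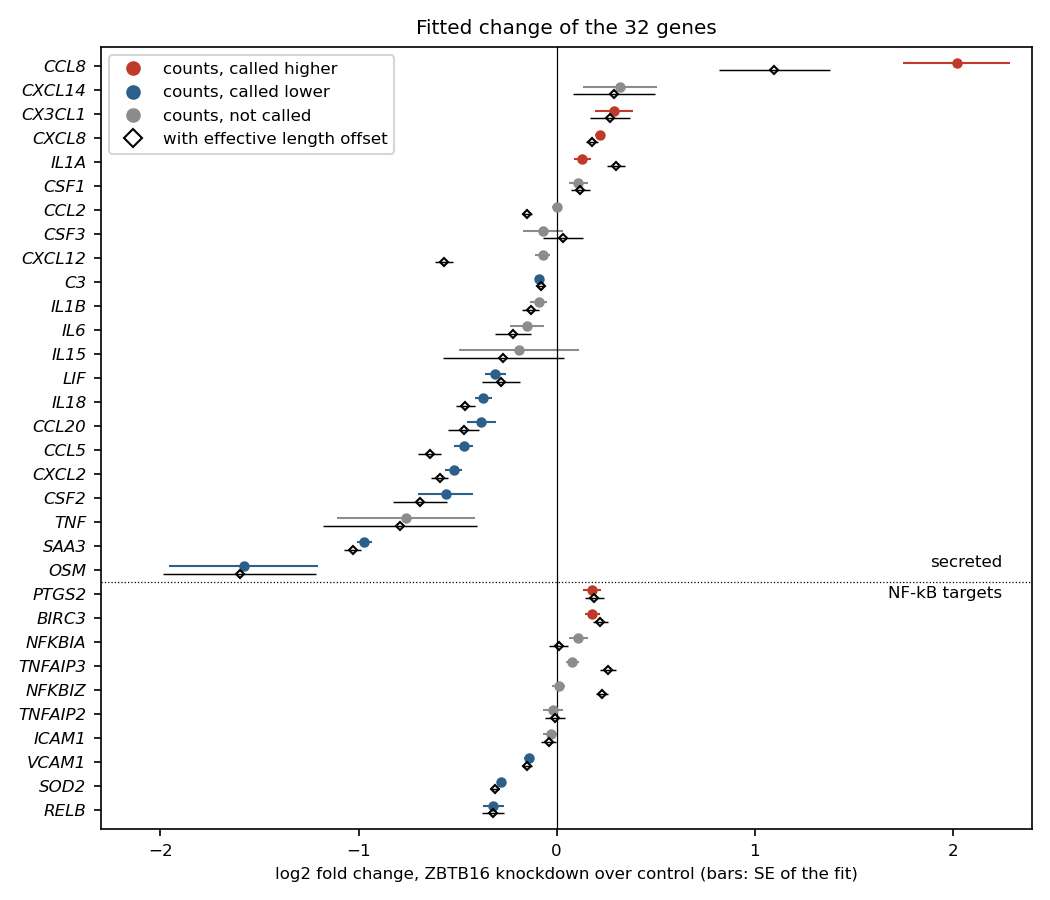
Log2 fold change of each member, ZBTB16 knockdown over control, with bars for the standard error of the fit. Circles are the fit on counts, coloured by call (red higher, blue lower, grey not called), and open diamonds the same fit with each gene's effective length as an offset. The 2 fits are close for most genes and part for CCL8 (2.02 and 1.1) and CXCL12 (-0.07 and -0.57).

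For 4 of the 32 members the deposited mean transcript length, an average over the gene's transcripts weighted by their estimated abundance, differed between groups by at least 1.1 times without overlap. The same held for 4.07% of all tested genes. For CXCL12 it was 1154.79 and 1207.69 bases in the knockdown, against 974.59 and 934.36 bases in the control. For IL1A it was 2217.04 and 2222.36 bases in the knockdown, against 2469.22 and 2476.67 bases in the control. These lengths stood apart by group in both genes, longer in the knockdown for CXCL12 and shorter for IL1A. NFKBIZ had 3577.16 and 3610.25 bases in the knockdown and 4049.80 and 4211.84 bases in the control. TNFAIP3 had 3908.76 and 4154.69 bases in the knockdown and 4497.08 and 4478.21 bases in the control. FPKM divides by this length, less a correction for the fragment. With the effective length offset, CXCL12 was lower (log2 -0.57, adjusted p = 5.61e-11), while NFKBIZ (log2 0.23, adjusted p = 7.54e-07) and TNFAIP3 (log2 0.26, adjusted p = 4.16e-06) were higher. Fragment length, which also differed between groups, enters the same estimate, and its part in these shifts was not tested. Under this offset 9 members were higher and 16 lower, where 22.5% of all tested genes were called higher and 23.9% lower.

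**Figure D4:**
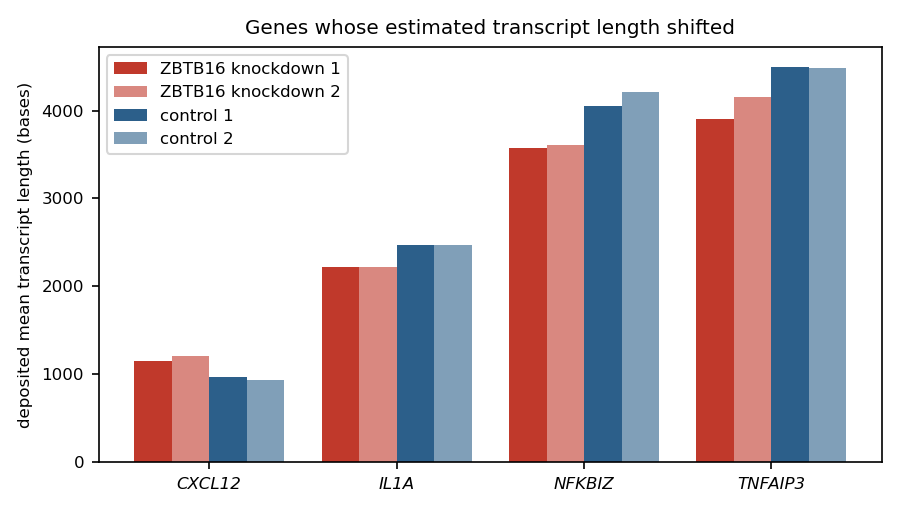
Deposited mean transcript length, in bases, of the 4 members whose length differed between groups (red, the 2 ZBTB16 knockdown libraries; blue, the 2 control libraries). Bars start at 0. CXCL12 is longer in the knockdown, while IL1A, NFKBIZ and TNFAIP3 are shorter.

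The window of 300 bases around the gene start was used for 30 members, and TNFAIP2, which lies on an unplaced scaffold, was among those left out. The kB consensus had a match on either strand in 10 of the 30 windows (33.3%), where 3209 of 19531 windows of protein-coding genes (16.4%) had one. Of these 10 genes, 5 fell (SAA3, CXCL2, CCL20, RELB and VCAM1), 0 rose and 5 were not called, so 50% were called beside 46.4% of all tested genes. The same 10 genes had 2 higher and 6 lower with the effective length offset, where 22.5% of all genes were higher and 23.9% lower. With the length trend removed 1 was higher and 4 lower, where 17.4% of all genes were higher and 23.4% lower. With limma on log2(TPM + 1) 4 were higher and 3 lower, where 41.7% of all genes were higher and 14.5% lower. Of the 20 genes without a match to the consensus, 6 rose, 6 fell and 8 were not called. The shorter site GGAATTTCC was in the windows of ICAM1, NFKBIA, CXCL8 and CXCL2, 13.3% against 0.4% of all windows. It overlapped a match to the kB consensus in each of them but CXCL8. CXCL8, which rose, is counted among the 20 genes without a consensus match, so the 0 rises hold for the consensus alone. With either kB pattern counted, CXCL8 is a gene with a match that rose. The AP-1 motif TGANTCA was in the windows of TNFAIP3, CXCL14, CSF1 and CXCL8, 13.3% against 6.1% of all windows. The matches of the other genes that fell are shown with 5 bases on each side, read 5′ to 3′ on the strand of the match, with the match in capitals.
CCL20: cacgtGGGGTTTTCCccatt
RELB: gcgtgGGGGTTTTCCcattc
RELB: gcgccGGGGAATTCCgccgc
VCAM1: ttgaaGGGATTTCCCtccgc
Those of the genes that were not called are shown in the same way.
NFKBIA: gctcgGGGAATTTCCaagcc
TNFAIP3: acgcgGGGACACCCCggggc
TNFAIP3: acccaGGGACTTTCCagtca
TNFAIP3: cagcaGGGGATTTCCaccca
ICAM1: cagttGGGAAATTCCggtgc
CSF1: ttcaaGGGACTTTCCctcta
IL6: aatgtGGGATTTTCCcatga
A match is a stretch of letters and was not tested for binding. The difference in direction between genes with and without a match was not tested.

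**Figure D5:**
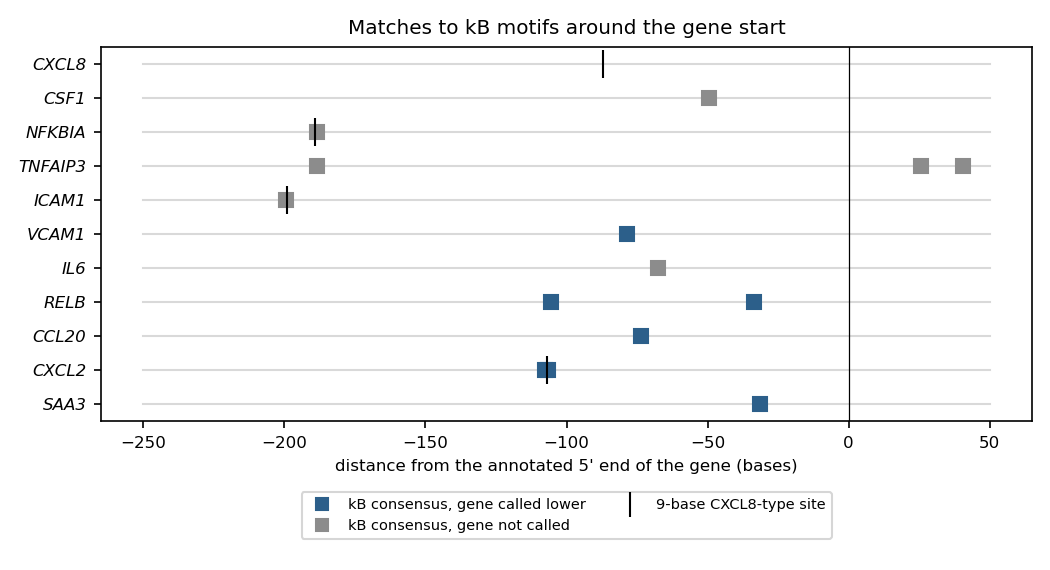
Position of each match to a kB motif, in bases from the annotated start of the gene (0), for the 11 members with one. Squares are matches to the kB consensus, blue where the gene was called lower in the ZBTB16 knockdown and grey where it was not called, and black ticks are the 9-base site. The blue squares lie between position -112 and the gene start, a range that also holds the grey squares of CSF1 and IL6.

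The receptors of these ligands were given by a list of their own. Of 22 tested, 6 rose, 3 fell and 13 were not called, which makes 40.9% called, below the 46.4% of all tested genes. With DESeq2 4 were higher and 2 lower, where 15.7% of all genes were higher and 16.6% lower. IL6ST, the signalling subunit shared by IL-6, LIF and oncostatin M, was at 72.24 and 75.08 FPKM in the knockdown, against 60.18 and 61.21 FPKM in the control (log2 0.31, adjusted p = 2.98e-27). OSMR, a receptor subunit for oncostatin M, was at 23.61 and 24.11 FPKM in the knockdown, against 18.87 and 18.81 FPKM in the control (log2 0.30, adjusted p = 1.53e-10). Both subunits rose, while LIF, which signals through IL6ST, and OSM, which signals through both, fell. The fall of OSM rests on few reads, and IL6, which also signals through IL6ST, was called lower only in some alternative fits. TNFRSF1B, the second TNF receptor, was at 53.14 and 50.58 FPKM in the knockdown, against 40.07 and 40.42 FPKM in the control (log2 0.31, adjusted p = 1.93e-13). CCR1, a receptor of CCL5 and CCL8 found on myeloid cells, was at 5.36 and 5.31 FPKM in the knockdown, against 7.25 and 8.90 FPKM in the control (log2 -0.54, adjusted p = 7.85e-08). CX3CR1, the receptor of CX3CL1, had 0 counts in every library, and CCR2, the receptor of CCL2, had under 5.

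In the signalling core of NF-kB, 8 of 29 tested genes rose, 8 fell and 13 were not called (55.2% called, beside 46.4% of all tested genes). With the length trend removed 7 were higher and 13 lower, where 17.4% of all genes were higher and 23.4% lower. With limma on log2(TPM + 1) 14 were higher and 4 lower, where 41.7% of all genes were higher and 14.5% lower. The balance of directions differed between the settings, and so did that of all genes. TRAF2, an adaptor of TNF receptors, was at 19.21 and 20.02 FPKM in the knockdown, against 32.37 and 30.38 FPKM in the control (log2 -0.64, adjusted p = 1.3e-24). TAB2, which links TAK1 to ubiquitin chains, was at 33.89 and 36.26 FPKM in the knockdown, against 26.23 and 26.04 FPKM in the control (log2 0.44, adjusted p = 1.54e-22). Its relative TAB3 rose by 0.51 (adjusted p = 1.96e-10) and TNIP2, a partner of A20, fell by 0.57 on the log2 scale (adjusted p = 2.76e-09). Adaptors of the same route thus moved in opposite directions.

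Of 18 tested Toll-like receptor and inflammasome genes, 2 rose, 5 fell and 11 were not called. The share called was 38.9%, below the 46.4% of all tested genes. IL18BP, the secreted antagonist of IL-18, was at 2.84 and 2.81 FPKM in the knockdown, against 4.62 and 4.72 FPKM in the control (log2 -0.76, adjusted p = 1.27e-12), so that the cytokine and its antagonist both fell. GSDMD, the pore protein that lets IL-1 family cytokines out of the cell, fell by 0.76 (adjusted p = 1.52e-11) and LY96, the partner of TLR4, by 0.43 on the log2 scale (adjusted p = 4.96e-09). TLR3, a sensor of double-stranded RNA, was at 10.49 and 11.82 FPKM in the knockdown, against 7.76 and 7.22 FPKM in the control, and rose (log2 0.33, adjusted p = 1.08e-06).

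Among 28 tested cytokines and chemokines outside the list of 32, 1 rose, 12 fell and 15 were not called, with a median log2 change of -0.21. The share called was 46.4%, that of all tested genes. With DESeq2 0 were higher and 5 lower of 26 tested, where 15.7% of all genes were higher and 16.6% lower. With the length trend removed 3 were higher and 7 lower of 28, where 17.4% of all genes were higher and 23.4% lower. With limma on log2(TPM + 1) 4 were higher and 10 lower of 30, where 41.7% of all genes were higher and 14.5% lower. IL11, another ligand of the IL6ST system, was at 7.97 and 6.17 FPKM in the knockdown, against 13.39 and 13.67 FPKM in the control (log2 -0.86, adjusted p = 2.42e-15). CXCL10, a chemokine induced by interferon, was at 27.47 and 23.72 FPKM in the knockdown, against 35.42 and 37.19 FPKM in the control (log2 -0.38, adjusted p = 4.28e-06). IL34, which shares its receptor with CSF1, fell by 0.55 on the log2 scale (adjusted p = 3.95e-06). AMCF-II, a pig neutrophil chemokine, fell by 0.12 on the log2 scale (adjusted p = 9.14e-07) and was at 0.02 on the log2(TPM + 1) scale and 0.03 with the length trend removed, so its direction depended on the scale.

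Of 33 tested further NF-kB target genes, 24 fell, 6 rose and 3 were not called. That makes 90.9% called, beside 46.4% of all tested genes. The median log2 change was -0.19, against 0 over all tested genes. With limma on log2(TPM + 1) 10 of them were higher and 11 lower, where 41.7% of all genes were higher and 14.5% lower. With DESeq2 6 were higher and 16 lower, where 15.7% of all genes were higher and 16.6% lower. With the length trend removed 6 were higher and 17 lower, where 17.4% of all genes were higher and 23.4% lower. SQSTM1, the autophagy receptor p62, was at 300.44 and 296.85 FPKM in the knockdown, against 413.76 and 403.17 FPKM in the control (log2 -0.39, adjusted p = 2.9e-41). MMP9, a secreted gelatinase, was at 72.96 and 71.48 FPKM in the knockdown, against 96.77 and 98.49 FPKM in the control (log2 -0.37, adjusted p = 7.04e-22). The partners CEBPD and CEBPB, which bind beside NF-kB at many cytokine genes, moved apart. CEBPD was at 179.53 and 174.86 FPKM in the knockdown, against 256.69 and 262.93 FPKM in the control (log2 -0.47, adjusted p = 2.27e-38). CEBPB was at 129.13 and 125.98 FPKM in the knockdown, against 94.03 and 96.66 FPKM in the control (log2 0.55, adjusted p = 6.49e-25).

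STAT3, which the IL-6 family activates, has feedback genes of its own. The list used here also held the kinase JAK1, which is not such a feedback gene. Of the 10 genes tested, 3 rose, 2 fell and 5 were not called (50% called, beside 46.4% of all tested genes). SOCS3, the inhibitor of IL6ST signalling, fell by counts (log2 -0.25, adjusted p = 2.62e-06) but was at 30.94 and 32.81 FPKM in the knockdown and 33.00 and 31.69 FPKM in the control, where the groups overlap. Its log2 change was 0.20 with limma on log2(TPM + 1) and 0.03 with the effective length offset, so the direction of SOCS3 depended on the scale. JAK1, the kinase bound to IL6ST, rose by 0.19 (adjusted p = 4e-14), JUNB fell by 0.19 (adjusted p = 1.13e-06) and the repressor BCL6 rose by 0.14 on the log2 scale (adjusted p = 0.00406).

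Summed FPKM stood apart by group for the macrophage, Sertoli, Leydig, endothelial, germ line, and peritubular and fibroblast markers. Only the sum of the lymphocyte markers overlapped. FPKM summed over all genes was itself lower in the knockdown (634962 and 632881) than in the control (739808 and 742383). The marker sums were not rescaled for this, so a gap between groups can come from the unit. Of the tested markers 37.5% were called for macrophages, 33.3% for Leydig cells, 16.7% for lymphocytes and 12.5% for endothelial cells. These shares are below the 46.4% of all tested genes. Above it were the shares of the germ line (50%), Sertoli cells (72.7%), and peritubular cells and fibroblasts (84.6%). Of 16 tested macrophage markers, 1 rose, 5 fell and 10 were not called, and 14 of the 20 in the tables reached 1 FPKM in any library. Their summed level was 98.5 and 95.7 FPKM in the knockdown, against 160 and 163 FPKM in the control. Much of it came from TYROBP, a signalling adaptor of myeloid cells, at 45.59 and 37.91 FPKM in the knockdown and 92.22 and 91.72 FPKM in the control. CD14, a co-receptor for bacterial lipopolysaccharide, fell by 0.34 and AIF1, a calcium-binding protein of macrophages, by 1.31 on the log2 scale, while the leukocyte phosphatase PTPRC rose by 0.44. PTPRC was low, at 1.68 and 2.37 FPKM in the knockdown and 1.34 and 1.38 FPKM in the control (adjusted p = 0.00611). With DESeq2 0 of 15 tested macrophage markers were higher and 3 lower, where 15.7% of all genes were higher and 16.6% lower. C1QB had under 5 counts in every library. Sertoli cell markers summed to 962 and 987 FPKM in the knockdown and 796 and 783 FPKM in the control (6 of 11 rose, 2 fell), Leydig cell markers to 181 and 192 FPKM in the knockdown and 222 and 220 FPKM in the control (0 of 6 rose, 2 fell). Much of the Leydig sum came from CYP11A1, at 144.22 and 150.48 FPKM in the knockdown and 161.73 and 157.83 FPKM in the control. By counts CYP11A1 was not called (log2 -0.05, adjusted p = 0.155). Of 13 peritubular and fibroblast markers 5 rose and 6 fell, and of 16 germ line markers 4 rose and 4 fell. Much of the germ line sum, and of its gap between groups, came from UCHL1, which fell (log2 -0.33, adjusted p = 1.24e-10). Lymphocyte markers summed to 6.81 and 6.36 FPKM in the knockdown and 6.95 and 5.57 FPKM in the control (1 of 6 rose, 0 fell), and endothelial markers to 20.6 and 18.8 FPKM in the knockdown and 23.8 and 22.4 FPKM in the control (0 of 8 rose, 1 fell). The part of these cells in the changes of the chemokines and cytokines was not tested.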

How the data were processed

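RNA of 2 ZBTB16 knockdown and 2 control libraries was sequenced on an MGI instrument, per the labels' protocols. The authors filtered reads with SOAPnuke 2.1.0, aligned them to Sscrofa 11.1 with HISAT2 2.2.1, mapped them to transcripts with bowtie2 2.3.5 and deposited expected counts, estimated by RSEM 1.3.3 and not always whole (87.3% to 88.5% whole). The authors deposited FPKM, which RSEM scales by effective length and library, and TPM, which has a fixed sum per library. FPKM summed to 634962 and 632881 in the knockdown and 739808 and 742383 in the control, so FPKM and TPM differ in scale between groups. Strand use in counting was not stated, so genes overlapping OSM, NFKBIA and PTGS2 on the opposite strand cannot be separated from them. The gene overlapping RELB lies on the same strand, so strand could not separate it either.

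Expected counts were rounded and compared with edgeR 4.0.16 in R 4.3.3 (TMM, filterByExpr with minimum count 10 and minimum total 15, two-sided quasi-likelihood test, Benjamini-Hochberg over 15763 genes). The script was tested on simulated data. An exact permutation test of 2 against 2 libraries cannot go below p = 0.333, so the test uses a spread pooled over genes (common biological coefficient of variation 0.0129). Alternatives were RLE and upper quartile scaling, no filter, DESeq2 1.42.0, limma 3.58.1 on log2(FPKM + 1) and log2(FPKM + 0.1) for genes of at least 1 FPKM in at least 2 libraries, log2(FPKM + 1) also with no filter, an effective length offset, removal of a length trend (mgcv 1.9.3), a replicate block, leaving out each library and an unadjusted p. Limma on log2(TPM + 1) and summed copies were added after seeing the data.

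All 32 members are named. Of each other list, up to 4 genes with the smallest p and a mean of at least 1 FPKM in the higher group are named. Members, roles, lists and tests were chosen with earlier results of these data known. Motifs were searched on both strands in 300 bases around RefSeq gene starts. The window of 1 member is not reported here.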

Additional observations from a re-analysis of the deposited data

How the results depend on the processing

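Of the 18 called members, 16 kept their direction under every alternative run, and CCL5, CCL8, CXCL2, OSM, SAA3 and SOD2 also kept their call. The exceptions in direction were C3 (0.10) and VCAM1 (0.03), both with limma on log2(TPM + 1), a scale that moved the median of all genes by 0.15 and called 14 members higher, 7 of them secreted and 7 NF-kB feedback or target genes, with 1 NF-kB feedback or target gene lower. Among secreted members 2 were higher with DESeq2 and with each of the 3 limma fits on FPKM, and 7 with the length trend removed, where 6 were lower, so the excess of falls was not seen there. Among NF-kB feedback and target members 4 were higher with RLE scaling, with the effective length offset and at an unadjusted p under 0.05, and between 1 and 2 when a library was left out. The low count of 1 came without control replicate 1, which took the call of PTGS2.

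Over all genes 2328 were higher and 2456 lower with DESeq2, and 5449 higher and 1898 lower with limma on log2(TPM + 1), while the edgeR fit called 3574 higher and 3745 lower. Limma on log2(FPKM + 1), log2(FPKM + 0.1) and log2(FPKM + 1) with no filter gave 2038, 2034 and 1421 higher. The cause of these shifts was not tested.

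Several other genes changed sign, among them AMCF-II and SOCS3, which the edgeR fit called lower. CCL2 was at -0.01 with no filter, -0.21 in each limma fit on FPKM, -0.15 with the offset, and between -0.03 and 0.04 when a library was left out. Leaving out libraries gave -0.01 to 0.70 for CXCL14, -0.44 to 0.13 for IL15, -0.14 to 0.00 for CSF3, -0.01 to 0.02 for NFKBIZ and -0.05 to 0.02 for TNFAIP2. With limma on log2(TPM + 1) IL1B was at 0.05, CSF3 at 0.19, TNFAIP2 at 0.16, ICAM1 at 0.13, AMCF-II at 0.02 and SOCS3 at 0.20. With the length trend removed CXCL12 was at 0.12, IL6 at 0.02, IL1B at 0.07, IL15 at 0.02, CSF3 at 0.08, NFKBIZ at -0.05 and AMCF-II at 0.03. With the offset CSF3 and SOCS3 were at 0.03. NFKBIA was at -0.04 in each limma fit on FPKM, and NFKBIZ at 0.00 with no filter.

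The replicate block called 3674 genes higher and 3806 lower, with 8 members higher and 12 lower; CSF1 and NFKBIA were the additions. Same-numbered libraries did not deviate together (correlation 0.00247 over 14150 genes), so the numbers were not read as pairs. Low counts limit OSM, TNF and IL15, each with at most 35 counts in any library, and the control libraries of CCL8.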
